A study of Mus musculus with 39 samples.

Results

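MiR-221 and miR-222 (mmu-miR-221 and mmu-miR-222 on the array) are a pair of miRNAs made from neighbouring hairpins on the mouse X chromosome. They are 2 of the 650 miRNAs measured, and they were chosen by their array signals in these same samples, so that their levels and differences are given as a description and without a test. MiRNA expression was measured on 39 Agilent 1-colour arrays, 3 for each of 13 groups, in the mouse ESC line TCL-1. The groups were undifferentiated ESCs, and cells grown for 1, 3 or 5 days with no factor (control), with 50 ng/ml Wnt3a, with 100 ng/ml Activin A, or with both, on collagen in serum-free medium with B27 and, by the labels, sodium butyrate. All groups had been grown on mouse embryonic fibroblast feeders, which were removed by letting them settle on gelatin before differentiation. All groups come from a single cell line, and no source used here says that the 3 samples of a group were separate cultures, so that the spread between them may be technical.

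A miRNA represses mRNAs that pair with its seed, the bases from position 2 to 8 of the mature strand, and miRNAs with the same seed share many targets. MiR-221 and miR-222 have the same seed and are usually transcribed as a single primary transcript. They are best known as growth-promoting miRNAs that repress the cell cycle inhibitor p27Kip1 and the receptor Kit. Activin A is used in place of Nodal to drive ESCs towards definitive endoderm (DE), and Wnt3a activates the canonical Wnt pathway. The comparisons here ask how the levels of the pair differ between cells with and without these factors at DE initiation (day 1), progression (day 3) and maturation (day 5). MiR-222 was also a part of the miRNA pool that the study transfected into differentiating cells.

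The mature strands are shown because the shared seed is what makes the pair a family. The array names carry no arm, and by the usual naming these are the strands now called 3p. The sequences are from RefSeq (GRCm38.p6), 5′ to 3′, with the seed in capitals.
mmu-miR-221-3p: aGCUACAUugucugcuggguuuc
mmu-miR-222-3p: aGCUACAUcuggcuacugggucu
mmu-miR-1928: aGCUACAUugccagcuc
MiR-221-3p lies at chrX:19146307-19146329 and miR-222-3p at chrX:19146901-19146923, both on the minus strand. The strands are 23 bases long, share their first 8 bases, and have the same base at 11 of 23 positions when set side by side without gaps. The hairpins, Mir221 at chrX:19146294-19146388 and Mir222 at chrX:19146893-19146971, are 504 bases apart and overlap no other RefSeq gene. The nearest annotated genes are the pseudogene Gm5383, 203059 bases away, and the lncRNA Gm14636, 9499 bases away. Of 1738 mature mouse miRNAs in RefSeq, 3 carry this seed. The other one, miR-1928, lies at chr1:74206562-74206578 and had no probe on the array.

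Agilent's software gives each miRNA a total signal in scanner units and a detection flag, and writes 0.1 where the miRNA was not detected. MiR-221 was detected on 39 of 39 arrays, with total signals from 42.5 to 199. MiR-222 was detected on 23 of 39, with detected signals from 8.94 to 51.0. The total signal of miR-221 was 6.78 to 13.7 times its error estimate, with a median of 12.5, and that of miR-222 was 3.17 to 10.9 times its error where detected, with a median of 6.02. For differences between groups the signals were quantile normalized, values under a floor of 2 were set to 2, and log2 was taken, so that an undetected miRNA is at 1. A miRNA counted as called at an adjusted p under 0.05 (limma) and a change of more than 2-fold.

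The arrays lay on 5 slides, read from the file headers, in 2 scan sessions. The day 3 arrays with both factors were on a different slide and in a different scan session from the other groups of that day, so that this treatment and the slide cannot be told apart. An array detected from 183 to 375 miRNAs, and the group medians went from 193 in undifferentiated ESCs to 352 with Wnt3a at day 5. The 5 pluripotent cell miRNAs of the miR-290 cluster used as a check were detected in undifferentiated ESCs, with summed normalized signals from 29471 to 29996. In the series matrix, 18 of 39 columns hold the rank order of another array, with Activin A and Activin A plus Wnt3a exchanged on each day. The names of the scanner files are used here, and under the names of the matrix every difference between these treatments given below has the opposite sign. Which naming is right was not settled, so that each value given for Activin A alone or for both factors depends on it.

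MiR-222 was close to the detection limit in undifferentiated cells and at day 1. In undifferentiated ESCs it was detected on 1 of 3 arrays, with a total signal of 9.44. At day 1 the software found it on 2 of 3 Wnt3a arrays (12.5 and 10.4), on 1 of 3 arrays with both factors (13.8), and on 0 of 3 arrays each of control and Activin A. By the total signal these groups cannot be ordered. The sums of its 2 probes, counted or not, were 13.4, 20.2 and 15.9 with Wnt3a and 14.9, 13.02 and 19.5 with both factors, against 3.29, 7.70 and 6.21 in control cells and 6.47, 4.04 and 14.1 with Activin A. The first 2 groups lay above the control arrays, which were on another slide. Of the 240 miRNAs tested on normalized totals, 42.9% and 42.1% did not overlap control with Wnt3a and with both factors. No control reading and only 3 of the 12 readings in those groups exceeded 3 times their error, so that no fold is given. The flags do not compare levels between days. The lowest detected normalized signal was 15.8 to 34.4 on the undifferentiated ESC arrays. In control cells at day 5 miR-222 was detected at 10.1 to 11.4 on that scale. With both probes summed and normalized, undifferentiated ESCs lay at 4.92, 4.23 and 4.82 (log2). Activin A at day 5 lay at 4.94, 5.00 and 4.61. Most ESC readings in these sums were below 3 times their error.

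At day 3 miR-222 was detected in both groups with Activin A. Its total signals were 15.8, 14.3 and 15.7 with Activin A and 25.4, 27.6 and 34.7 with Activin A plus Wnt3a. In control cells 1 of 3 arrays detected it (8.94), and with Wnt3a 0 of 3. All 6 arrays with Activin A were above all 6 without it. On the normalized scale 58% of the 326 miRNAs tested did not overlap control with Activin A, and 60.1% with both factors.

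At day 5 miR-222 was detected on all 12 arrays. Its total signals were 21.1, 19.4 and 22.3 in control cells, 28.1, 23.8 and 23.7 with Wnt3a, 51.0, 46.9 and 38.6 with Activin A, and 28.3, 24.4 and 25.1 with Activin A plus Wnt3a. The 3 Activin A arrays were above the other 9 arrays of that day on this scale. After normalization 73.4% of the 368 miRNAs tested did not overlap between Activin A and control. On the normalized scale 1 Wnt3a array, replicate 1, lay at 4.75, among the Activin A arrays at 4.79, 4.86 and 4.37, while the other Wnt3a arrays lay at 2.57 and 3.13.

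**Figure D1:**
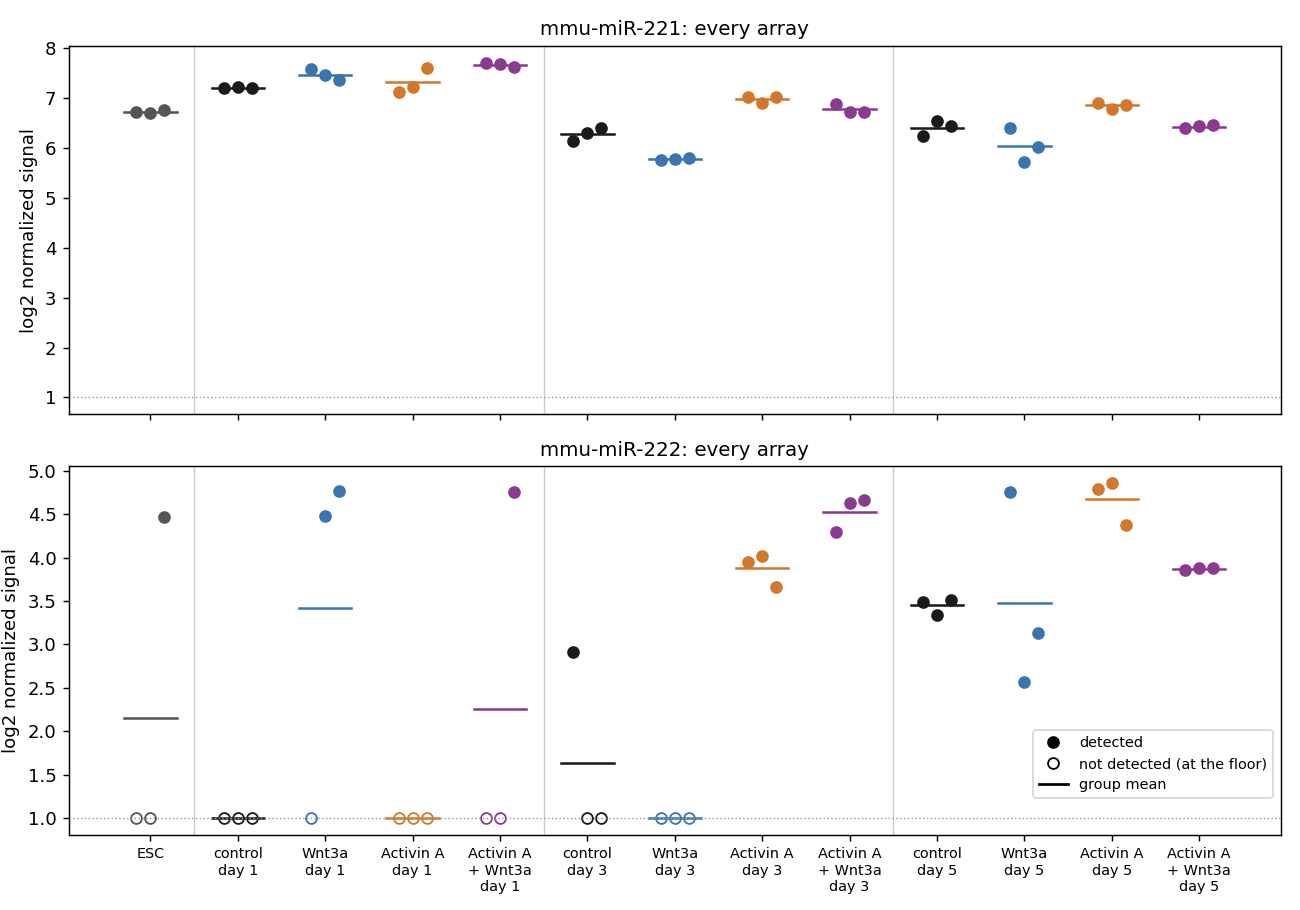
Normalized level (log2) of mmu-miR-221 (top) and mmu-miR-222 (bottom) on every array, by group, with lines at the group means, filled points for arrays where the software detected the miRNA and open points at the floor for arrays where it did not. MiR-221 is detected on all 39 arrays, and miR-222 on 23, among them all 12 arrays of day 5 and the 6 arrays with Activin A at day 3.

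MiR-221 had its lowest deposited signals in undifferentiated ESCs, at 47.5, 42.5 and 49.6. At day 1 the total signals were 60.2, 77.7 and 68.7 in control cells, 99.7, 127 and 97.6 with Wnt3a, 80.4, 59.0 and 116 with Activin A, and 124, 109 and 123 with Activin A plus Wnt3a. The 3 arrays with both factors and the 3 with Wnt3a were above the 3 control arrays, and the Activin A arrays spanned both ranges. On the normalized scale 42.1% of the 240 miRNAs tested did not overlap control with both factors, and 42.9% with Wnt3a.

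At day 3 the total signals of miR-221 were 75.9, 84.9 and 84.3 in control cells and 70.3, 67.9 and 74.4 with Wnt3a. They were 152, 127 and 186 with Activin A and 133, 109 and 127 with Activin A plus Wnt3a. The 6 arrays with Activin A were above the 6 without it, and the Wnt3a arrays were below the control arrays. On the normalized scale 58%, 60.1% and 46.9% of the 326 miRNAs tested did not overlap control with Activin A, both factors and Wnt3a.

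At day 5 they were 93.6, 106 and 103 in control cells, 70.3, 124 and 107 with Wnt3a, 199, 167 and 188 with Activin A, and 134.9, 116 and 104 with Activin A plus Wnt3a. The 3 Activin A arrays were above the other 9, and the other treatments overlapped the control. After normalization 73.4% of the 368 miRNAs tested did not overlap between Activin A and control.

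MiR-221 also had an order of levels over the 13 groups, which depended on the normalization. On the normalized log2 scale the order from the highest was Activin A plus Wnt3a at day 1 (7.67 ± 0.04, mean ± SD, n = 3), Wnt3a at day 1 (7.46 ± 0.11), Activin A at day 1 (7.31 ± 0.25) and control at day 1 (7.202 ± 0.013). Next came Activin A at day 3 (6.98 ± 0.07), Activin A at day 5 (6.85 ± 0.06), Activin A plus Wnt3a at day 3 (6.77 ± 0.09) and undifferentiated ESCs (6.73 ± 0.03). The lowest were Activin A plus Wnt3a at day 5 (6.43 ± 0.04), control at day 5 (6.40 ± 0.15), control at day 3 (6.28 ± 0.12), Wnt3a at day 5 (6.04 ± 0.34) and Wnt3a at day 3 (5.78 ± 0.02). The 3 arrays of a group overlapped those of the next lower group at all steps of this order except 3, which lay below Activin A plus Wnt3a at day 1, below control at day 1 and below undifferentiated ESCs. As deposited, the highest group was Activin A at day 5 (185 ± 16.6) and the lowest undifferentiated ESCs (46.5 ± 3.66).

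At DE initiation miR-221 was higher with Wnt3a and with both factors than in control cells, and these groups were also on another slide. For miR-221 the normalized log2 difference from control was 0.26 for Wnt3a, 0.11 for Activin A and 0.47 for the combination (SE 0.11 each). Control arrays were on a different slide from the Wnt3a and the combined arrays, and Activin A was split over both. Activin A replicates 1 and 2, on the slide of the control arrays (7.19 to 7.22), lay at 7.12 and 7.22, while replicate 3, on the other slide, lay at 7.60, within the range of the Wnt3a and combined arrays there (7.36 to 7.70). With the slide as a block the differences were -0.17, -0.03 and 0.04. Without Activin A replicate 3 the Activin A difference was -0.03. Activin A plus Wnt3a minus Activin A was 0.35 (SE 0.11), and 0.07 with the slide in the fit.

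Both members passed the filter on low values (detection on at least 2 of 3 arrays of a group) in every comparison. MiR-222 did so at day 1 only through the Wnt3a group, and at day 3 only through the groups that had Activin A. Its fitted differences at day 1 rest on the floor and have an SE of 1.18, and they are not given here. Neither member was called at day 1 in any comparison with the total signals. Of the 240 miRNAs tested, 4.17% were called with Wnt3a, 5.42% with Activin A plus Wnt3a and 0.833% for the effect of Wnt3a on top of Activin A, and each of these went to 0.417% with the slide as a block. With Activin A limma called 0 of 240 (0%), with 40 at an unadjusted p under 0.05. The one-way test that the methods name called 5, but its F-test spans all groups of the day and not this contrast alone.

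At DE progression both members were higher with Activin A than in control cells. MiR-221 differed by 0.71 with Activin A and by 0.49 with Activin A plus Wnt3a (SE 0.07 each), changes of 1.63-fold and 1.41-fold. Wnt3a alone went the other way, with a difference of -0.50 (SE 0.07). In none of these did the arrays of the treatment overlap those of the control, which was also so for 58%, 60.1% and 46.9% of the 326 miRNAs tested with Activin A, with the combination and with Wnt3a. The signs of these 3 differences were the same in all alternatives tried. With the arrays named as in the scanner files the ranges were 0.29 to 0.91, 0.21 to 0.59 and -0.56 to -0.14. On slide 2, which held control replicates 2 and 3 with all Activin A and Wnt3a arrays, the control arrays lay at 6.30 and 6.39, the Activin A arrays at 7.03, 6.90 and 7.03, and the Wnt3a arrays at 5.76, 5.78 and 5.80.

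MiR-222 differed from control at day 3 by 2.24 with Activin A and by 2.89 with both factors (SE 0.43 each), and miR-222 was the member called in both. The call for Activin A was kept with the slide as a block and lost with the slide as a random block, in a single fit of all arrays, with a floor of 10, with normexp correction and in plain tests of each pair, and the call for the combination was lost with normexp. Of 326 miRNAs tested, 19% were called with Activin A and 20.2% with the combination, and no weight is put on the call of a member chosen by these signals. These differences are set largely by the floor, since 2 of 3 control arrays did not detect miR-222. MiR-222 entered this fit only through the groups that had Activin A, where it was high, so that its calls are not independent of the filter. With Wnt3a it was detected on 0 of 3 arrays, and neither member was called there (3.07% of all tested).

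**Figure D2:**
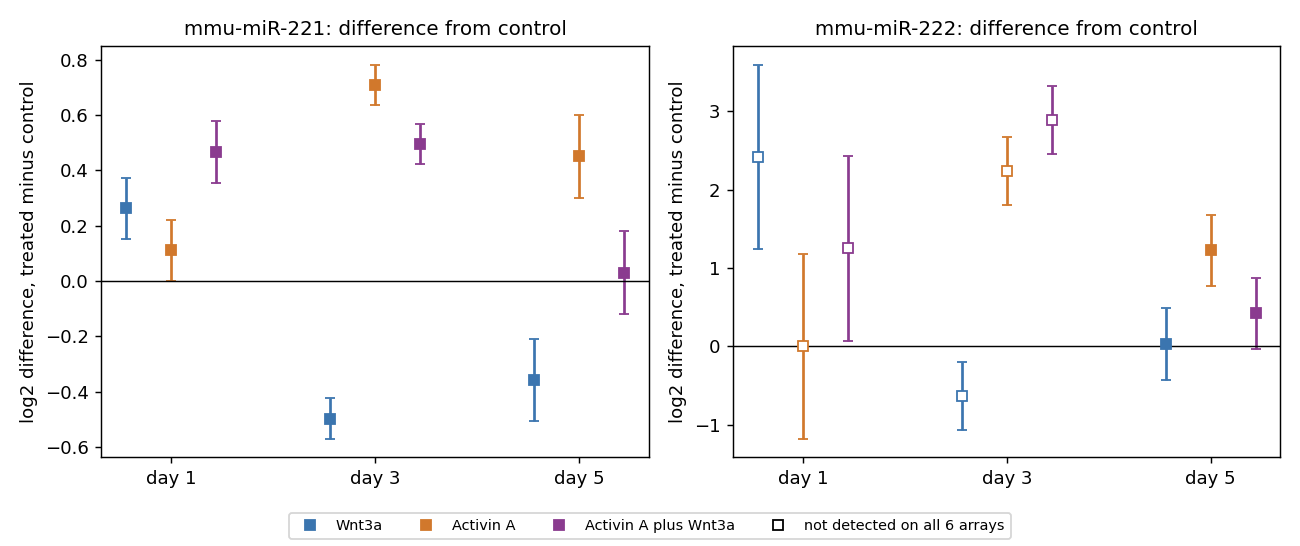
Normalized log2 difference from the control of the same day for mmu-miR-221 (left) and mmu-miR-222 (right), with bars for the standard error of the fit. Open squares mark comparisons in which the member was not detected on all 6 arrays; miR-221 lies above 0 with Activin A at days 3 and 5 (0.71 and 0.45) and below 0 with Wnt3a (-0.50 and -0.36).

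On the normalized totals the 2 members differed in sign when Wnt3a was added to Activin A at day 3. The arrays with both factors were on another slide and in another scan session, so that the treatment and the slide cannot be told apart. MiR-221 differed by -0.21 (SE 0.07) and was lower with both factors, and miR-222 differed by 0.65 (SE 0.43) and was higher. The arrays of the groups did not overlap on the normalized scale for either member, and the same was so for 43.9% of all miRNAs tested. On deposited signals the groups overlapped for miR-221, by the total and by each probe. Neither was called, against 3.99%.

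The difference in miR-222 changed when its probes were read separately. The array has 2 probes for each member, with 10 spots each. In all 25350 totals of the 650 miRNAs on 39 arrays, the deposited total was the sum of the probes whose signal exceeded 3 times its own error, within 0.1%, or the miRNA was flagged as not detected where no probe reached this limit. A probe that missed the limit added nothing. On the Activin A arrays of day 3, probe A_54_P2643 of miR-222 stood at 2.82, 2.76 and 2.99 times its error and was left out. On the Activin A plus Wnt3a arrays it stood at 3.17, 4.07 and 5.15 times its error and was counted. The number of counted probes differed in this way between all arrays of these groups for 13 of 326 miRNAs.

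The signals of that probe were 7.25, 6.74 and 8.20 with Activin A and 9.75, 9.95 and 12.9 with Activin A plus Wnt3a. Those of the other probe, A_54_P2644, which was counted on all 6 arrays, were 15.8, 14.3 and 15.7 with Activin A and 15.7, 17.7 and 21.8 with Activin A plus Wnt3a, and the groups overlapped. On deposited signals the total of miR-222 was 1.92-fold higher with Activin A plus Wnt3a and probe A_54_P2644 1.20-fold. No fold is given for A_54_P2643, whose readings with Activin A were below the limit. On the normalized scale the sum of both probes gave a difference of 0.16 in place of 0.65, with 4.61, 4.57 and 4.35 with Activin A and 4.43, 4.76 and 4.81 with Activin A plus Wnt3a, which overlap. This sum includes the readings below the limit.

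Against control the same sum kept both groups with Activin A apart at day 3. The sums of both probes were 11.97, 8.40 and 10.2 in control cells, 7.49, 8.81 and 9.73 with Wnt3a, 23.0, 21.0 and 24.0 with Activin A, and 25.4, 27.6 and 34.7 with Activin A plus Wnt3a. All 6 sums with Activin A were above the 6 without it. The shares of all miRNAs without overlap at this day (58% and 60.1%) are for normalized totals and not for such sums. Of the 6 control readings behind these sums 1 exceeded 3 times its error, so that the size of the difference from control is not given. For miR-221, whose probes were both counted on every array, Activin A was 1.86-fold above control by A_54_P2640 and 1.92-fold by A_54_P3830.

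**Figure D3:**
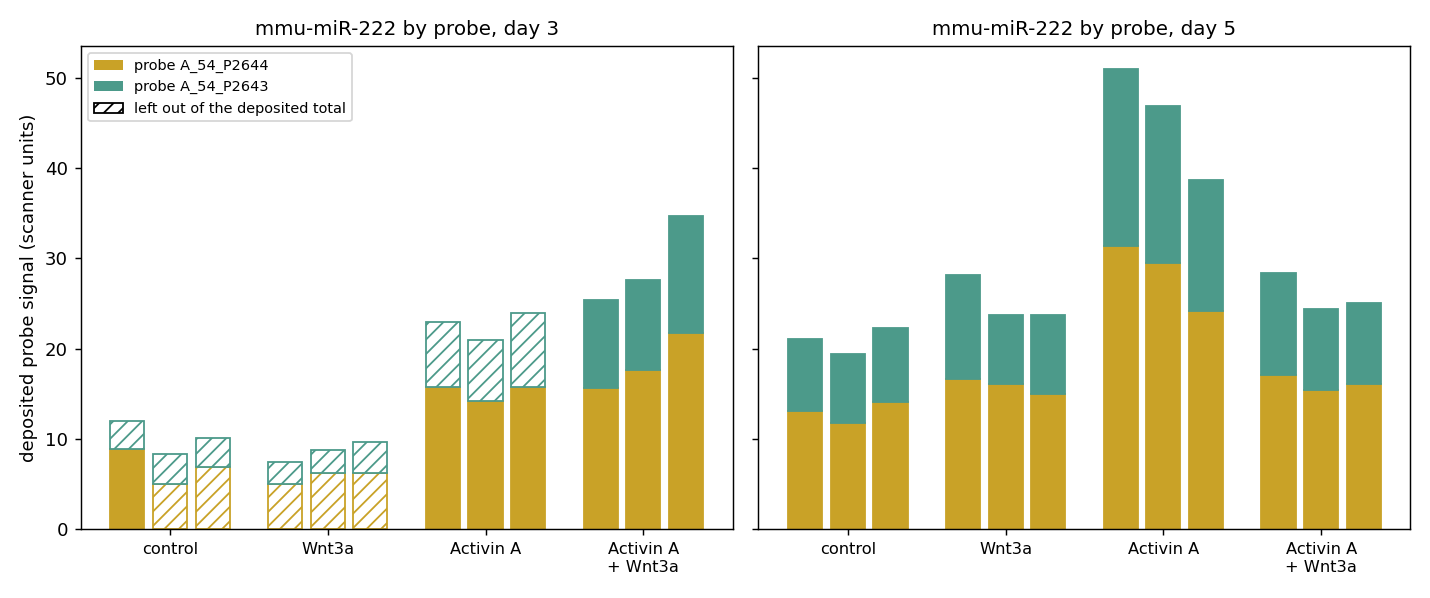
Deposited signal (scanner units) of the 2 probes of mmu-miR-222, stacked, on each array of day 3 (left) and day 5 (right), with hatching where a probe did not reach 3 times its error and was left out of the deposited total. At day 3 the stacks with Activin A reach 21.0 to 24.0 and those with Activin A plus Wnt3a 25.4 to 34.7, but only the filled parts, 14.3 to 15.8 and 25.4 to 34.7, enter the totals.

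At DE maturation both members were highest with Activin A alone by their group means within the day. Under the names of the matrix this would be the combined treatment. MiR-221 was 0.45 above control (SE 0.15) and miR-222 1.22 above control (SE 0.45), changes of 1.37-fold and 2.34-fold. The Activin A arrays did not overlap the control arrays for either member, as for 73.4% of the 368 miRNAs tested. On the slide that held the control arrays with Activin A replicates 1 and 2, miR-222 lay at 3.49, 3.34 and 3.52 in control cells and at 4.79 and 4.86 with Activin A. MiR-221 lay there at 6.23, 6.53 and 6.43, and at 6.90 and 6.78. Before normalization miR-221 was 1.83-fold higher with Activin A, on arrays where the median of all tested miRNAs was 0.21 higher on the log2 scale.

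With Activin A plus Wnt3a at day 5, miR-221 was 0.03 from control (SE 0.15), with overlapping arrays, and miR-222 was 0.42 above it (SE 0.45), without overlap (73.4% of all tested). With Wnt3a, miR-221 was -0.36 from control (SE 0.15) and miR-222 0.03 (SE 0.45), with overlap in both. The arrays of both treatments were on another slide than the control arrays, and Activin A was on both slides. With the slide as a block the combination differed from control by 0.01 for miR-221 and 0.87 for miR-222, and Wnt3a by -0.38 and 0.48. The miR-222 value with Wnt3a rests on replicate 1, which detected 330 miRNAs against 375 and 352 on the other arrays. Without this array the differences with Wnt3a were -0.53 for miR-221, in the same direction as with it, and -0.60 for miR-222.

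When Wnt3a was added to Activin A at day 5, both members were lower, and the arrays did not overlap, as for 35.3% of all tested. MiR-221 differed by -0.42 (SE 0.15) and miR-222 by -0.80 (SE 0.45). On the slide that held all arrays of the combined treatment, Activin A replicate 3 lay at 6.86 for miR-221, against 6.39 to 6.46, and at 4.37 for miR-222, against 3.86 to 3.88. Both probes of each member were counted on all 6 arrays. Activin A was 1.76-fold and 1.75-fold higher by the probes of miR-222 and 1.56-fold and 1.57-fold higher by those of miR-221, on deposited signals. Without normalization the median of all tested miRNAs for Activin A plus Wnt3a minus Activin A was -0.25 on the log2 scale. After normalization Activin A was 1.34-fold higher for miR-221 and 1.74-fold for miR-222. Neither member was called at day 5 in any comparison. Of 368 miRNAs tested, 25% were called with Activin A, 30.4% with Activin A plus Wnt3a, 3.8% with Wnt3a and 2.72% for the effect of Wnt3a on top of Activin A. With the slide as a block limma called 17.7% for the combination and 0 of 368 for Wnt3a, with 32 at an unadjusted p under 0.05. For Wnt3a the one-way test called 17, but it has no slide term and its F-test spans all groups of the day.

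In untreated cells the level of miR-221 over time depended on the normalization. From undifferentiated ESCs to day 1 it was 0.48 higher (SE 0.11). From day 1 to day 3 it differed by -0.93 on the normalized scale (SE 0.11), but was 0.25 higher as deposited. The arrays of day 3 were brighter as a whole, and the median of all tested miRNAs moved by 1.18 from day 1 to day 3 without normalization and by 0.50 with it. Scaling to the 75th percentile gave -0.92 over miRNAs detected on all arrays and -1.29 over all miRNAs, and normexp background correction gave -0.39. The day 1 and day 3 control arrays were on different slides, and with the slide as a block the difference was -1.49 and miR-221 was called. From day 3 to day 5 it was 0.12 higher (SE 0.11), within the spread of the arrays. MiR-222 went from detection on 1 of 3 arrays at day 3 to 3 of 3 at day 5, and its sums of both probes from 8.40 to 11.97 at day 3 to 19.4 to 22.3 at day 5. These sums are as deposited, and the day 5 control arrays were on another slide and in another scan session. Without normalization the median of all tested miRNAs moved by 0.38 over this step. On the normalized scale the sum of both probes differed by 0.51, against 1.81 for the totals. From day 1 to day 3 the normalized sum differed by -0.37. Without the slide in the fit neither member was called in these steps, against 16.6%, 49.3% and 18.5% of 373 miRNAs tested.

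MiRNAs of the fibroblast lineage moved over the same interval as miR-221. The 8 miRNAs of this list, of which miR-199a-3p, miR-214, miR-143 and miR-145 are the defining ones, had summed normalized signals from 3195 to 3952 in undifferentiated ESCs, from 3751 to 3769 in control cells at day 1, from 841 to 1107 at day 3 and from 1672 to 1776 at day 5. From day 1 to day 3, 5 of 7 tested were called lower and 1 higher, with a median difference of -4.94 against 0.50 for all tested. Of the defining miRNAs, miR-199a-3p went from 9.41 to 4.47 on the log2 scale, miR-214 from 6.27 to no detection, miR-143 from 1 of 3 arrays to 0 of 3, and miR-145 was on 0 of 3 on both days. The sum is carried mostly by miR-21, which is not a defining one and lay at 11.43, 9.81 and 10.67 at days 1, 3 and 5. At day 5 miR-199a-3p lay at 4.598 and miR-214 was not detected. Their part in the difference of miR-221 was not tested, and in a bulk sample fewer cells of a type and less RNA per cell cannot be told apart.

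**Figure D4:**
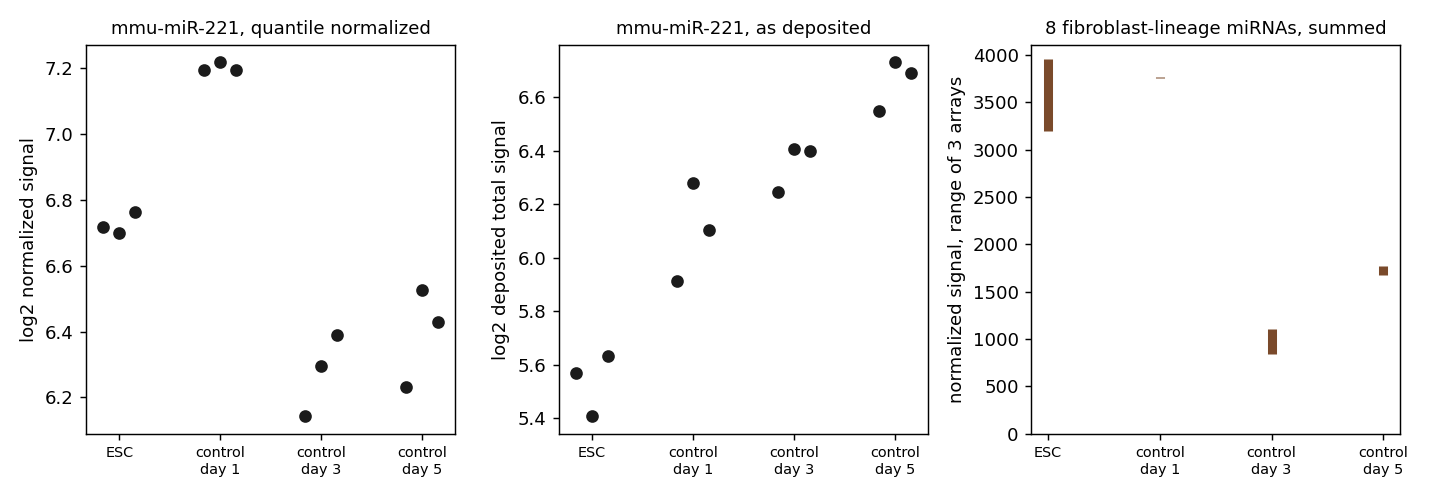
Cells without added factors over time: mmu-miR-221 on each array after quantile normalization (left, log2) and as deposited (middle, log2), and the range over 3 arrays of the summed normalized signal of 8 fibroblast-lineage miRNAs (right). MiR-221 is lower at day 3 than at day 1 on the normalized scale (-0.93) and higher as deposited (0.25), while the fibroblast-lineage sum goes from 3751 to 3769 at day 1 to 841 to 1107 at day 3.

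By treatment, the sums of this fibroblast list at day 3 were 1074 to 1254 with Activin A, 1089 to 1178 with both factors and 1441 to 1518 with Wnt3a, against 841 to 1107 in control cells, and of 4 tested 2 were called lower with Activin A. At day 5 the sums, carried mostly by miR-21, were 1281 to 1381 with Activin A and 1478 to 1861 with both factors, against 1672 to 1776 in control cells. Of 7 tested, 1 was called higher and 1 lower with Activin A, and 3 were called higher with both factors (median 0.80). With Wnt3a added to Activin A, 3 of 7 were called higher (median 1.61). Of the defining miRNAs at day 5, miR-143 was on 3 of 3 arrays with Activin A (3.12) and with both factors (3.44) and on 0 of 3 control arrays. MiR-199a-3p lay at 3.796 and 5.403 against 4.598. MiR-214 was on 0 of 3 arrays with Activin A and 1 of 3 with both factors, and miR-145 on 1 of 3 and 0 of 3, against 0 of 3 control arrays for each. The part of these in the differences of the pair was not tested. The pluripotent cell list was called higher with Activin A in 3 of 5 at day 3 and 4 of 5 at day 5. The endoderm and epithelial list (miR-375, miR-141, miR-429 and the miR-200 miRNAs) was called higher with Activin A in 6 of 6 at both days, with medians of 1.75 at day 3 and 3.59 at day 5. The neural list (miR-124, miR-9 and miR-219) was called lower in 2 of 3 at day 3 and 3 of 3 at day 5. Of 2 endothelial miRNAs, the strands of miR-126, 1 was tested and it was not called in any comparison.

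The other 5 miRNAs of the transfected pool were miR-181c, miR-338-5p, miR-196a, miR-196b and let-7e. The study describes the pool as miRNAs that it identified itself, though it had also taken up let-7e from earlier work on human DE. Their direction in these samples is therefore not independent evidence. Of the 5, 4 were called higher with Activin A and 4 with both factors at day 3, and the exception was miR-196a. Of all 326 miRNAs tested, 19% and 20.2% were called in either direction. The medians of the pool were 1.33 and 2.35, against -0.04 and -0.03 for all tested. Both are the values of miR-196b, which was on 0 of 3 control arrays, so that they rest on the floor. MiR-181c was on 0 of 3 control arrays of that day and miR-338-5p on 1 of 3. Let-7e, a miRNA linked to differentiation, was higher than control by 2.88 and 2.68 (SE 0.49), where 1 of 3 control arrays did not detect it. At day 5 again 4 were called higher in each, and the exception was miR-338-5p. Of all 368 miRNAs tested, 25% and 30.4% were called in either direction. The medians of the pool were 1.47 (miR-181c) and 2.34 (let-7e), and both miRNAs were on 3 of 3 control arrays. MiR-196a and miR-196b were on 0 of 3 control arrays at day 5, so that their differences from control rest on the floor. When Wnt3a was added to Activin A none was called at day 3, and 2 were called at day 5, the Hox-cluster miRNAs miR-196a (2.51, SE 0.13) and miR-196b (1.74, SE 0.06), both higher with Wnt3a added. In the same comparison miR-222 was lower (-0.80).

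On the normalized totals, where undetected miR-222 is at the floor, Pearson's r between the 13 group means of the members was -0.02. It was 0.78 over the 8 groups of days 3 and 5. The points share libraries and normalization, and the low end of miR-222 is the floor. The -0.02 therefore does not show that the members went separate ways. On deposited totals Activin A at day 5 was the highest group for both (185 and 45.5), and no correlation was taken on that scale. The miRNAs most like miR-221 in their 13 group means, among 160 detected in as many groups, were let-7c (r = 0.89), let-7e (0.88), miR-23a (0.88), miR-23b (0.86) and miR-34c (0.86). Those most like miR-222, among 290, were miR-338-5p (0.78), miR-101a (0.76), miR-32 (0.76), miR-667 (0.74) and miR-101b (0.72). MiR-221 came at rank 188 of these 290, on the same scale with its floor.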

How the data were processed

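MiRNA levels were taken from the scanner output of 39 arrays, grouped by their labels (13 groups of 3). The authors deposited intensity values: Agilent's Feature Extraction (10.7.3.1 in the file headers, 9.5.3.1 in the labels) subtracted the background and summed detected probes into a total signal for each of 650 miRNAs. The deposited detection flags gave the filter. They follow from the same probe signals and their errors, so that the filter is not independent of the values tested. The log2 values of the series matrix, to which the authors had applied a floor and quantile normalization, served as an alternative only. Array number limits the precision.

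Total signals were quantile normalized (limma 3.58.1, R 4.3.3), set to 2 where lower, and log2 transformed. The tests covered miRNAs detected on at least 2 of 3 arrays of 1 group of the fit. Each day was fitted over its 12 arrays and the steps over time over 39, with Benjamini-Hochberg adjustment over the miRNAs tested. The fits were tested on simulated data. The members and lists were chosen with earlier results of these data known. Named miRNAs are the members, the transfected pool, the cell type lists and, for each member, the 5 with the highest Pearson's r over group means among miRNAs detected in at least as many groups. Alternatives were other scalings, floors, background corrections and filters, the series matrix, slide or replicate number as a block (statmod 1.5.0), other fits and tests, each array left out, and the sum of both probes, which was chosen after seeing the data. Names were matched to RefSeq sequences by name with or without the arm, which found one for 368 of 611 mouse miRNAs of the array.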

Additional observations from a re-analysis of the deposited data

Results flagged for a closer look

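Differences that point opposite ways on different days, with no overlap between the arrays on either day on the normalized scale, were singled out. The difference between days was not tested in any of them. A lack of overlap was common among all miRNAs tested. For Wnt3a minus control it was found in 42.9% at day 1 and 46.9% at day 3. For Activin A plus Wnt3a minus Activin A it was found in 22.9%, 43.9% and 35.3% at days 1, 3 and 5. For miR-221, Wnt3a minus control was 0.26 at day 1 and -0.50 at day 3 on the normalized log2 scale, and the day 1 value was -0.17 with the slide in the fit. Activin A plus Wnt3a minus Activin A was 0.35 for miR-221 at day 1, against -0.21 at day 3 and -0.42 at day 5, and the day 1 value was 0.07 with the slide in the fit. In this comparison the deposited totals of miR-221 overlapped at days 1 and 3. For miR-222 the same comparison was 0.65 at day 3 and -0.80 at day 5, and the values were 0.16 and -0.64 with both probes summed. Groups of 3 arrays were too small to look for outlying arrays.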

How the results depend on the processing

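The number of members called (of 2) stayed the same under most of the alternatives, and none turned a direction that had been called. Depth is limited by signal over error, which for miR-222 is close to the detection limit. At day 3 the call of miR-222 with Activin A (1 member) went to 0 with a floor of 10, with normexp correction, in 1 fit of all 39 arrays, with slide as a random block and in plain tests of each pair, and that with Activin A plus Wnt3a went from 1 to 0 with normexp. At day 5 with Activin A the count went from 0 to 1 without normalization, with floor and log2 before normalization, with a floor of 10, with the matrix columns matched to their arrays, in plain tests and with both probes summed, and ranged from 0 to 1 over left-out arrays, with 1 without Wnt3a replicate 1 or replicate 2. With Activin A plus Wnt3a at day 5 it was 1 with the matrix columns as named. At day 1 the count was 1 with Wnt3a under slide as a random block and with both probes summed, and 1 with Activin A plus Wnt3a with both probes summed. Over time it was 1 from ESCs to day 1 in the one-way test (whose F-test spans all groups of its fit), 1 from day 1 to day 3 with the 75th percentile over all miRNAs and with slide as a block, and 1 from day 3 to day 5 with either 75th percentile, without normalization, in the one-way test and without control day 3 replicate 1 (range 0 to 1). The causes were not tested. For the differences of the members themselves, 414 of 524 values under other settings moved by less than the spread between arrays. Many of these could not move. Other filters, the one-way and plain tests and the replicate block change only the tests or the miRNAs tested, and other floors do not reach miR-221. For miR-222 the spread includes arrays at the floor, so that this share is not a measure of stability. The replicate numbers did not pair the arrays (correlations of their deviations from -0.49 to 0.39), and with the replicate number as a block the counts were unchanged, 1 and 1 with the Activin A treatments at day 3 and 0 elsewhere. The slide could not be fitted as a block for Activin A plus Wnt3a at day 3 or from control day 3 to day 5. As a random block it had a correlation of -0.05.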
